A study of Bos taurus with 60 samples.

Results

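bta-miR-320a, bta-miR-320b, bta-miR-484 and bta-miR-877 are bovine microRNAs (miRNAs) of the kind known for skipping part of the usual maturation pathway, and bta-miR-423-5p and bta-miR-423-3p are the products of the 2 arms of the miR-423 hairpin. These 6 rows of the table of mature miRNAs were taken by name, out of 608 rows, of which 603 had at least 1 count. The names were chosen by their measured difference in shedding as well as by their maturation: they were set down with the difference between cattle that shed Escherichia coli O157 and cattle that do not already known for miR-320a, miR-877 and miR-423-5p. Values of that difference are therefore given as a description. Counts of the 6 that passed a test of it stand beside the share of all miRNAs that passed, and nothing is read from them.

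A miRNA is a short RNA that guides an Argonaute protein to matching sites in messenger RNAs. Most miRNAs are cut from a long primary transcript by the nuclear enzyme Drosha and then from the hairpin by Dicer. In mouse and human cells the miR-320 and miR-484 hairpins bypass Drosha. Transcription starts at the end of the hairpin itself, which carries a cap, and Dicer then cuts the hairpin. miR-877 is a mirtron, a hairpin that splicing releases as a whole intron, in mouse and human from the gene of the ABC protein ABCF1. miR-423 is a Drosha-dependent hairpin whose arms both reach Argonaute, and its 5p strand has been studied in human plasma as a marker of heart failure. In the RefSeq gene table of cattle (assembly ARS-UCD2.0), MIR877 lies inside ABCF1 and MIR423 inside NSRP1, which codes for a splicing regulator. MIR484 lies next to MARF1 and NDE1. Mature miR-320a can come from 2 bovine hairpin genes, MIR320A-1 beside the RNA polymerase III subunit gene POLR3D and MIR320A-2 inside RNF180, and counts of the mature miRNA cannot tell them apart.

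The series holds 60 small RNA libraries of snap-frozen intestinal biopsies from cattle (Bos taurus), from 3 regions of the small intestine (duodenum, proximal and distal jejunum) and 3 of the large intestine (cecum, spiral and descending colon). In each region 5 libraries came from non-shedders, whose feces were negative for Escherichia coli O157, and 5 from super-shedders, which excreted this bacterium in large numbers. In the sample titles, non-shedders have the letters A to E. Super-shedders have F to J, and a letter was treated as 1 animal with 1 library per region. The labels give no strain, age, genotype or treatment, and the only difference stated between the groups is the shedding status, which was observed and not assigned. The extraction text speaks of rectal tissue throughout, and the regions used here are those of the tissue labels.

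Total counts ran from 535373 to 19346766 per library, with a median of 1735054. Epithelial, muscle, leukocyte and red cell marker miRNAs were all detected in every group. In 13 libraries, 10 of super-shedders and 3 of non-shedders, marker miRNAs went against the labelled region or tissue, by a rule of at least 50 CPM (counts scaled to a common library size) of miR-196b in the large intestine and less in the small, at least 10000 CPM of miR-192, and less than 100 CPM of miR-122. All 6 libraries of the super-shedder letter I were among them. The others were letter B in both parts of the jejunum and letter C in the spiral colon. Letter G was among them in the descending colon, and letter H in the distal jejunum and both parts of the colon. Values without these libraries are given beside some results only. Most values of single regions, and those of the balance between the miR-423 arms, include them. The tissue was bulk, so fewer cells of a type and less RNA per cell cannot be told apart.

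The 6 miRNAs covered very different levels. Levels in CPM, after TMM scaling over all 60 libraries, compare reads, not molecules, since miRNAs differ in how well they are cloned. The 3p arm of miR-423 was the most abundant, with 621 ± 241 CPM (SD, n = 60 libraries) and rank 69 of all rows by total counts. miR-320a followed with 401 ± 107 CPM and rank 82. miR-484 stood at 149 ± 32.1 CPM and miR-423-5p at 83.2 ± 61.6 CPM. The mirtron miR-877 reached only 2.495 ± 2.13 CPM, or 406 counts in the whole series. bta-miR-320b had 2 counts in all, 1 in the duodenum of letter F and 1 in the distal jejunum of letter J, and is not described further. Of the 6, miR-320a, miR-484 and both arms of miR-423 had enough counts to be tested in every region, and miR-877 only in counts summed per animal.

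miR-320a was lower in super-shedders in the mean of every region, with the widest separation in the cecum. There, non-shedders A to E held 436, 447, 596, 708 and 643 CPM and super-shedders F to J held 402, 332, 369.9, 371 and 386 CPM. In these TMM-scaled levels the groups did not overlap: the highest super-shedder lay below the lowest non-shedder. As shares of total counts they did overlap, with 1242 of 3873218 counts in non-shedder B and 717 of 1370244 in super-shedder F. The means were 566 ± 121 and 372 ± 25.9 CPM (SD, n = 5 each), a ratio of 0.658 of super-shedders to non-shedders. The edgeR fit, which scaled the cecum libraries on their own, put miR-320a 1.60-fold lower in super-shedders, a log2 fold change of -0.68 ± 0.17 (SE). miR-320a was the 1 miRNA of 260 tested in the cecum whose groups separated in this direction (0.385%), and nothing is read from that share since this contrast was known when the name was chosen. Without letter I, whose cecum library goes against its markers, the value was -0.63 ± 0.17.

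Tissue markers were also compared in the cecum. There, 0 of 5 muscle marker miRNAs were higher in super-shedders (median log2 fold change -0.99) and 7 of 9 epithelial ones were (median 0.56), although none passed in edgeR or DESeq2, with 1 epithelial marker at an unadjusted p under 0.05 in each. The summed muscle markers ran from 104074 to 1197089 CPM in non-shedders and from 166431 to 517145 CPM among super-shedders, and the epithelial ones from 28481 to 138876 and from 84012 to 210626 CPM. TMM-scaled sums can pass the total of a library, and no marker of either list was at 0. Of the red cell markers, 0 of 2 were higher in super-shedders in the cecum (median -0.65), and of the leukocyte markers 4 of 5 were (median 0.30). None of these passed in edgeR or DESeq2, or had an unadjusted p under 0.05. The part of all these markers in the difference of miR-320a was not tested. Scaling to total counts, which moved the median of all tested miRNAs in the cecum to 0.32, gave -0.29 ± 0.30 for miR-320a.

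In the spiral colon, non-shedders A to E held 442, 423.5, 476, 477 and 355 CPM of miR-320a and super-shedders F to J 326, 279, 365, 271 and 286 CPM. Here 4 of 5 super-shedders lay below every non-shedder, and letter H lay just above the lowest of them (log2 fold change -0.47 ± 0.16). The distal jejunum held 662, 299.9, 403, 414 and 398 CPM in non-shedders and 291, 289, 297, 400.1 and 218 CPM among super-shedders. Again 4 of 5 super-shedders lay below every non-shedder, while the high value of letter I overlapped (-0.48 ± 0.26). In the duodenum the values were 426, 383, 344, 609 and 429 CPM in non-shedders and 318, 260.2, 265, 431 and 346 CPM among super-shedders. The highest super-shedder there was again letter I, and the groups overlapped (-0.48 ± 0.21).

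The separation was smallest at the proximal jejunum and the descending colon. In the proximal jejunum, non-shedders held 266, 396, 522, 469 and 386 CPM and super-shedders 384, 279.6, 351, 563 and 285 CPM. The ranges were nearly the same, with a low non-shedder A and a high super-shedder I (-0.11 ± 0.24, with -0.00 ± 0.27 without letter C, -0.02 ± 0.27 without letter J and -0.33 ± 0.24 without the libraries against their markers). In the descending colon the values were 509, 338, 539, 441 and 496 CPM and 383, 299, 367, 519 and 395 CPM, where letter C was the highest and letter I the next (-0.21 ± 0.24). The tissue markers are counted here by the sign of their log2 fold change, not by calls. Going down the gut from the duodenum through both parts of the jejunum to the cecum, the spiral and the descending colon, the muscle markers higher in super-shedders were 0, 5, 5, 0, 1 and 0 of 5. The epithelial markers higher were 1, 0, 3, 7, 4 and 3 of 9, and the leukocyte markers 3, 0, 3, 4, 5 and 5 of 5. The red cell markers higher were 2, 2, 0, 0 and 0 of 2 down to the spiral colon, and 3 of 3 in the descending colon. Their part in the values of miR-320a was not tested.

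**Figure D1:**
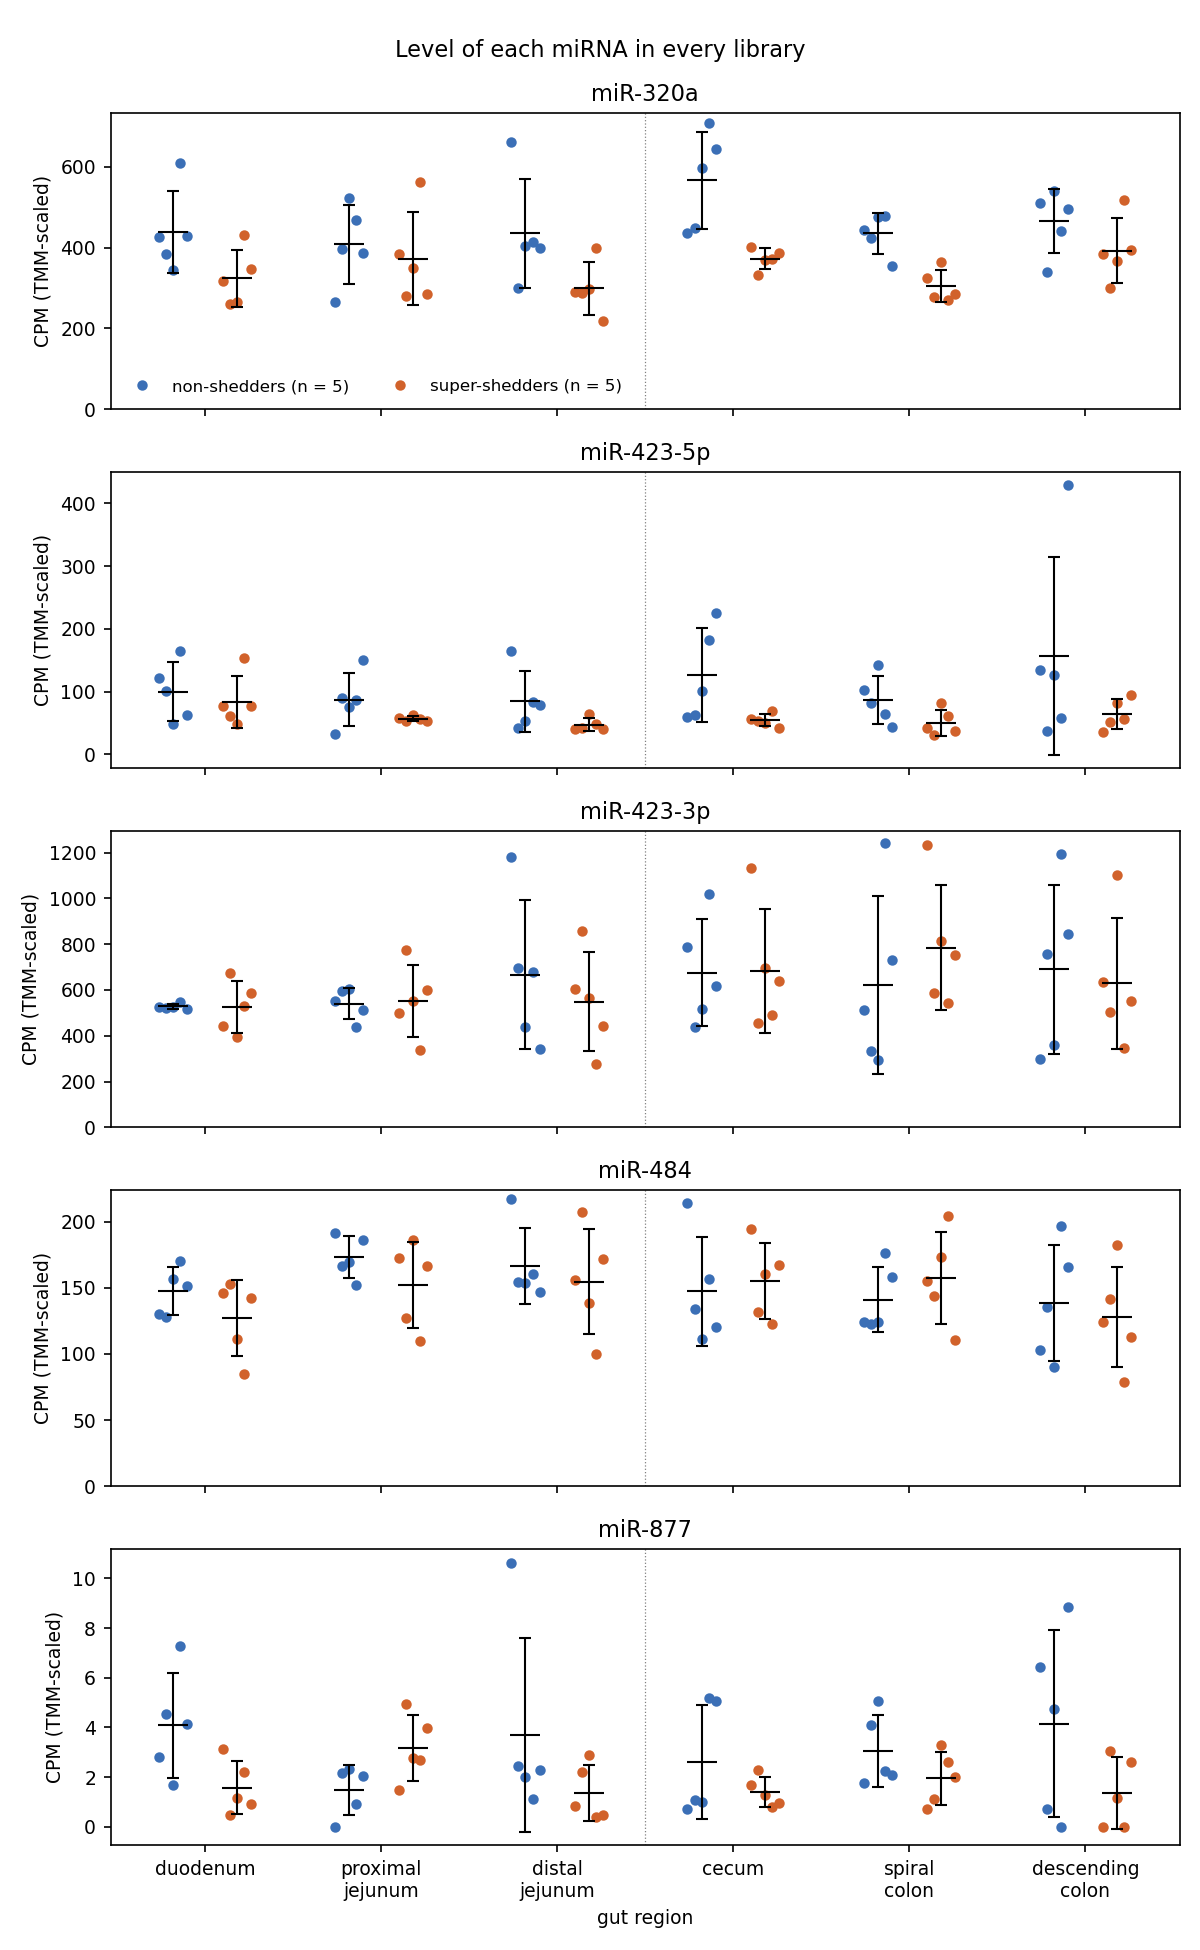
Level of each miRNA in CPM (vertical axis, linear) in the 60 libraries, by gut region and shedding status; each point is 1 library, drawn in the order of the letters, and the bars are the mean and SD of 5. At this TMM scaling, all super-shedders of the cecum lie below all its non-shedders for miR-320a. miR-423-5p reaches 429 CPM in 1 non-shedder of the descending colon.

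miR-423-5p was likewise lower in the mean of super-shedders in every region, but its non-shedders spread widely. In the cecum, non-shedders A to E held 59.0, 62.7, 102, 182 and 226 CPM and super-shedders F to J 57.2, 53.6, 50.7, 68.7 and 42.6 CPM. The super-shedders clustered near the lowest non-shedders A and B, while D and E lay far above (log2 fold change -1.28 ± 0.37, or 2.43-fold lower). The same differences in tissue markers stand beside this value as beside that of miR-320a. In the descending colon the values were 134, 37.6, 127, 57.5 and 429 CPM in non-shedders and 35.0, 51.9, 82.3, 57.2 and 95.3 CPM among super-shedders. Letter E held the highest level of the series, and the log2 fold change of -1.24 ± 0.59 became -0.45 ± 0.45 without that letter.

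In the spiral colon, miR-423-5p stood at 102, 81.4, 143, 64.8 and 43.0 CPM in non-shedders and 41.8, 30.7, 81.3, 61.2 and 37.1 CPM among super-shedders (log2 fold change -0.76 ± 0.38). Non-shedders A and C lay above all super-shedders and B just above the highest of them, while E lay among the lower ones. The spiral colon libraries of letters C, H and I go against their markers. In the proximal jejunum, super-shedders were tightly grouped at 58.4, 53.5, 62.9, 56.6 and 53.3 CPM, against 32.4, 89.2, 75.9, 86.9 and 151 CPM in non-shedders. All non-shedders but A lay above every super-shedder there (-0.59 ± 0.33). In the distal jejunum the values were 165, 42.3, 52.6, 83.4 and 79.5 CPM and 40.4, 42.2, 64.5, 48.2 and 40.1 CPM, with letter A far above the rest (-0.79 ± 0.38). In the duodenum, non-shedders held 122, 102, 48.3, 165 and 62.7 CPM and super-shedders 77.9, 60.8, 48.7, 154 and 77.7 CPM, and the high super-shedder I reached the range of the highest non-shedder. The difference was smallest there, at -0.31 ± 0.39, with -0.57 ± 0.34 without letter I and -0.05 ± 0.39 without letter D. Over all regions the SD was 77.4 CPM in the 30 libraries of non-shedders and 23.5 CPM in those of super-shedders. Without the highest library of each, letter E of the descending colon and letter I of the duodenum, it was 48.8 and 15.6 CPM.

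The other arm of the same hairpin, miR-423-3p, had almost equal means in both groups. It stood at 621 ± 258 CPM in the 30 libraries of non-shedders and 621 ± 228 CPM in those of super-shedders. In the cecum the values were 787, 438, 516, 1021 and 619 CPM in non-shedders and 1132, 455, 697, 489 and 639.7 CPM among super-shedders. The ranges overlapped over nearly their whole width, with a log2 fold change of -0.04 ± 0.30. In the duodenum the 5 non-shedders were close together, from 518 to 546 CPM, and the super-shedders lay on both sides of them, from 393 to 674 CPM. In the other regions the libraries of either status spread over more than the difference of their means, from 276 CPM in letter I of the distal jejunum to 1244 CPM in letter D of the spiral colon. The log2 fold changes of the 6 regions ran from -0.23 ± 0.37 in the distal jejunum to 0.40 ± 0.37 in the spiral colon.

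The 3p arm outnumbered the 5p arm in 60 of 60 libraries, so the balance between the arms can be given as the share of the 5p arm in the counts of both. This share comes from 2 rows of the same library and does not depend on the scaling. In the cecum it was 6.97, 12.5, 16.5, 15.1 and 26.8% in non-shedders A to E and 4.81, 10.5, 6.78, 12.3 and 6.24% in super-shedders F to J. In the spiral colon it was 16.6, 19.6, 32.8, 4.95 and 5.56% and 3.28, 4.97, 9.07, 10.2 and 4.70%, and in the descending colon 31.0, 4.72, 26.2, 4.59 and 33.7% and 5.22, 9.31, 6.94, 14.2 and 14.7%. Non-shedders A, B and C in the spiral colon and A, C and E in the descending colon stood above all super-shedders, while the other 2 lay at the low end. In the small intestine the groups overlapped more, with means of 15.5 ± 5.99% and 13.7 ± 5.48% in the duodenum, 13.8 ± 6.40% and 9.93 ± 2.96% in the proximal jejunum, and 11.7 ± 4.72% and 8.87 ± 3.95% in the distal jejunum (SD, n = 5 each, non-shedders first).

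Over all regions, the 5p share averaged 15.4 ± 8.59% (SD) in the 30 libraries of non-shedders and 9.52 ± 4.21% in those of super-shedders. The mean was lower in super-shedders in 6 of 6 regions. Averaged per animal, non-shedders A to E had shares of 15.2, 11.98, 17.6, 12.6 and 19.7% and super-shedders F to J 7.497, 7.38, 9.05, 14.7 and 8.96%. Letter I, all of whose libraries go against their markers, was the 1 super-shedder within the range of the non-shedders. The share was built from miR-423-5p, whose difference was known when it was named, and is given as a description.

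**Figure D2:**
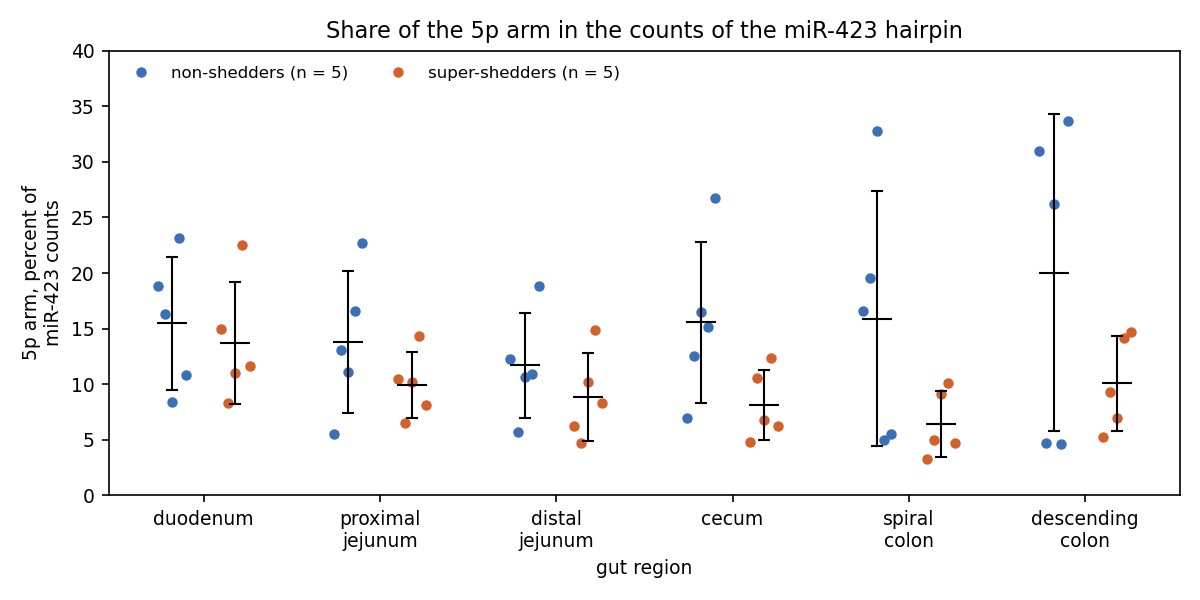
Share of the 5p arm in the summed counts of both miR-423 arms (vertical axis, percent) by gut region and shedding status; each point is 1 library, and the bars are the mean and SD of 5. The means of super-shedders lie below those of non-shedders in 6 of 6 regions, while the 2 groups overlap in each region and non-shedders of the colon spread over high and low libraries.

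The mirtron miR-877 was counted too rarely for a value per region to carry weight. In 4 libraries it had 0 counts, which allows up to between 1.40 and 2.86 CPM at 3 counts of the library. Summed over the 6 regions, non-shedders A to E had 112, 44, 35, 26 and 55 counts and super-shedders F to J had 14, 24, 24, 18 and 54. The descending colon library of letter A, the deepest of the series, supplied 81.2% of that letter's counts, and 66.7% of the counts of letter J came from 1 library. As mean CPM over the regions, which weighs every library equally, non-shedders had 3.72, 2.52, 2.80, 2.79 and 4.08 CPM and super-shedders 1.31, 2.35, 2.10, 1.45 and 1.83 CPM. The lowest non-shedder was just above the highest super-shedder, a separation in this direction that 1.39% of the 361 miRNAs tested in the sums had. The highest single level was 10.6 CPM in letter A of the distal jejunum, which at 535373 counts was the shallowest library. The proximal jejunum went the other way, with means of 1.49 ± 1.004 CPM in non-shedders and 3.18 ± 1.33 CPM among super-shedders.

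miR-484, whose hairpin is capped in mouse and human like that of miR-320, varied little. In the cecum, non-shedders held 214, 134, 111, 156.9 and 121 CPM and super-shedders 194, 131, 161, 123 and 167 CPM. These ranges overlapped almost completely (log2 fold change -0.01 ± 0.25), in the same libraries in which miR-320a separated after TMM scaling. Per animal the means over the regions were 163, 140.1, 134, 169 and 155 CPM in non-shedders and 158, 151, 159, 117 and 145 CPM among super-shedders, with the lowest value in letter I. In the other regions the libraries ran from 128 to 170.3 in non-shedders and 84.5 to 153 in super-shedders in the duodenum, 152 to 191 in non-shedders and 109.9 to 186 in super-shedders in the proximal jejunum and 147 to 217 in non-shedders and 100.1 to 207 in super-shedders in the distal jejunum. In the colon they ran from 123 to 176 in non-shedders and 111 to 204 in super-shedders in its spiral part and 90.4 to 197 in non-shedders and 79.2 to 182 in super-shedders in its descending part. The log2 fold changes of the regions ran from -0.23 ± 0.23 in the duodenum to 0.21 ± 0.19 in the spiral colon, so neither miR-484 nor miR-423-3p kept 1 direction over the regions.

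When the counts of an animal's regions were added up, miR-320a, miR-423-5p and miR-877 were lower in super-shedders. These are here called the lower set, while miR-484 and miR-423-3p lay near 0. The difference of the lower set was known when its miRNAs were named, so the split is no independent result. miR-320a had a log2 fold change of -0.40 ± 0.13 (SE, with 5 animals in each status), which is 1.32-fold lower in super-shedders. miR-423-5p was at -0.88 ± 0.21, or 1.84-fold lower, and miR-877 at -0.93 ± 0.25, or 1.91-fold lower. miR-484 was at -0.00 ± 0.14 and miR-423-3p at 0.09 ± 0.23. These sums weigh deep libraries more. For miR-320a, 1 descending colon library supplied 66.2% of the summed counts of letter A and 1 supplied 57.4% of those of letter J. For miR-423-5p these shares were 70.4% and 68.3%. Without the 13 libraries against their markers the values were -0.47 ± 0.11, -0.96 ± 0.22 and -0.98 ± 0.29 for the lower set, 0.10 ± 0.13 for miR-484 and 0.20 ± 0.19 for miR-423-3p. That setting drops super-shedder I entirely and some regions of letters B, C, G and H, so its sums cover unlike regions. With any 1 letter left out, miR-320a stayed between -0.47 and -0.35, miR-423-5p between -0.98 and -0.69 and miR-877 between -1.01 and -0.78. On means of log2(CPM + 1) that weigh each region equally, fitted with limma, miR-877 was at -0.46 ± 0.16. The added 1 narrows differences at levels as low as those of miR-877, so this value and that of the sums are not on the same scale.

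Per animal, the mean level of miR-320a over the regions was 457, 381, 480.1, 519.9 and 451 CPM in non-shedders A to E and 351, 289.8, 336, 426 and 319 CPM among super-shedders F to J. That of miR-423-5p was 102, 69.1, 91.4, 107 and 165 CPM and 51.8, 48.8, 65.1, 74.3 and 57.7 CPM. In both cases the groups overlapped by 1 pair, since super-shedder I stood above non-shedder B. For miR-423-3p the means were 643, 557, 457, 853 and 594 CPM and 758, 642, 688, 420.0 and 596 CPM, fully overlapping. Over the summed counts, 3 of 9 epithelial markers and 1 of 5 muscle markers were higher in super-shedders (medians -0.03 and -0.20), and 0 of these 14 passed in edgeR or DESeq2, or had an unadjusted p under 0.05. Of the leukocyte markers 4 of 5 were higher (median 0.05), and of the red cell markers 3 of 3 (median 0.32). None of these passed or had an unadjusted p under 0.05 either.

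miR-320a and miR-423-5p were below 0 in 6 of 6 regions, also under size-factor scaling, total counts, no low-count filter, DESeq2, 1 fit of all libraries, and without the 13 libraries. Of 227 miRNAs tested in every region, 15 (6.61%) were below 0 in all 6. None of the 4 testable miRNAs passed an adjusted p of 0.05 in any region by edgeR's quasi-likelihood test, over 24 tests, and 4 of the 24 had an unadjusted p under 0.05, against 6.63% of 1509 tests over all miRNAs. DESeq2 also called 0 of 24, against 0.663% of all, with 6 at an unadjusted p under 0.05, against 8.61%. The same edgeR test called 0.418% of all tested miRNAs for the duodenum, 0.412% for the distal jejunum, 0.383% for the spiral colon and 0% in the proximal jejunum, the cecum and the descending colon. In the summed counts it called 0 of 5, against 0.277% of 361, with 3 at an unadjusted p under 0.05, against 9.42%. DESeq2 called 2 of the 5 there, against 3.05% of all, and limma on letter means 0 of 5, against 0%. In limma, 3 of the 5 had an unadjusted p under 0.05, against 9.42%. The members at an unadjusted p under 0.05 in the edgeR fit of the summed counts were miR-320a, miR-423-5p and miR-877, for which this difference was known when the names were chosen, so these counts are no independent evidence. Whether the shedding difference varied between regions was tested in 1 model of all 60 libraries. There 0 of 4 passed in edgeR, against 0.347% of 288, and 0 of 4 in DESeq2. In either, 0 had an unadjusted p under 0.05, against 15 of all 288 in edgeR.

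**Figure D3:**
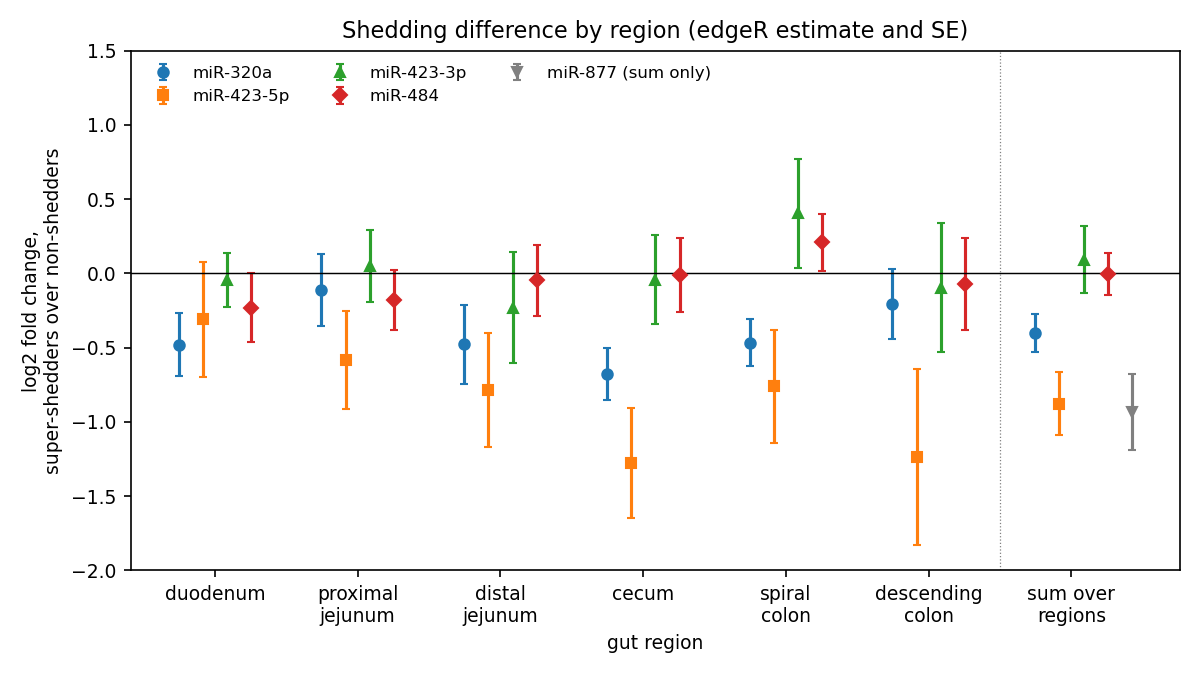
Log2 fold change of super-shedders over non-shedders (vertical axis) with its SE from edgeR, for each region (n = 5 libraries per status) and for each animal's summed counts (5 animals in each status). miR-320a and miR-423-5p lie below 0 in every region, from -0.68 to -0.11 and from -1.28 to -0.31, while miR-484 and miR-423-3p lie on both sides of 0.

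The position along the gut, which the choice of names did not use, was compared next, and no member passed a test of it in the main analysis. Region means of miR-320a ran from 469 CPM in the cecum through 429 in the descending colon, 390.1 in the proximal jejunum, 381 in the duodenum and 370.1 in the spiral colon to 367 in the distal jejunum (n = 10 each). miR-484 was highest in the proximal jejunum, at 163 ± 26.3 CPM (SD), and lowest in the descending colon, at 133 ± 39.0 CPM. miR-423-3p ran from 527 ± 75.1 CPM in the duodenum to 704 ± 328 CPM in the spiral colon, and its SD was larger in the distal jejunum and the large intestine than in the duodenum. miR-423-5p ran from 65.8 ± 38.3 CPM in the distal jejunum to 111 ± 117 CPM in the descending colon, where letter E sets the mean. miR-877 stayed between 2.01 CPM in the cecum and 2.83 CPM in the duodenum. No neighbours in any of these orders differed beyond the spread between libraries in the pair tests that follow, which did not cover miR-877.

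In the model of all 60 libraries, 0 of 4 passed the edgeR test for any difference between regions (adjusted p of 0.21 for miR-320a, 0.32 for miR-423-5p, 0.46 for miR-484 and 0.59 for miR-423-3p), against 21.9% of 288 tested miRNAs. DESeq2 also called 0 of 4, and 0 had an unadjusted p under 0.05 in either test, against 114 of all 288 in edgeR. The large against the small intestine gave log2 fold changes of 0.14 ± 0.08 for miR-320a (edgeR adjusted p = 0.17), 0.15 ± 0.18 for miR-423-5p (0.58), 0.28 ± 0.14 for miR-423-3p (0.12) and -0.08 ± 0.09 for miR-484 (0.49). The first 2 turned to -0.09 and -0.13 when scaled to total counts, which moved the median of all tested miRNAs in this comparison from -0.01 to -0.22. Again 0 of 4 passed in edgeR, against 27.1% of all, and in DESeq2, against 30.9%. In both, 0 had an unadjusted p under 0.05, against 41.7% of all in edgeR and 42.7% in DESeq2. Within non-shedders 0 of 4 passed in edgeR, against 23.6% of all, and within super-shedders 0 of 4, against 2.08%. DESeq2 also called 0 of 4 in each status, and 0 had an unadjusted p under 0.05 by edgeR or DESeq2. Over all 288 miRNAs, 117 in non-shedders and 49 in super-shedders had an edgeR unadjusted p under 0.05.

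Over the 15 pairs of regions, 0 of 60 tests passed in edgeR, 4 with an unadjusted p under 0.05, against 18.8% of the tests of all miRNAs. In DESeq2 also 0 passed, 7 with an unadjusted p under 0.05, against 20.3%. The share of all miRNAs called in a pair ran from 0% to 13.5%. The nearest to passing was miR-320a between the cecum and the distal jejunum, higher in the cecum by a log2 fold change of 0.35 ± 0.14 (adjusted p = 0.11, 8.68% of all called). With the letter as a block this became 0.36 ± 0.13 and passed (adjusted p = 0.0422, 16% of all called), as it did without letter I (adjusted p = 0.0439). Without the 13 libraries against their markers it did not pass, at 0.30 ± 0.14 (adjusted p = 0.0955) and, with the block as well, at 0.30 ± 0.14 (adjusted p = 0.083). With both, miR-320a passed between the cecum and the proximal jejunum instead (0.34 ± 0.13, adjusted p = 0.0393, 32% of all called). miR-423-3p passed between the large and the small intestine only without letter G (0.40 ± 0.15, adjusted p = 0.0498). Without the 13 libraries, miR-484 was lower in the large than in the small intestine (-0.21 ± 0.09, adjusted p = 0.0414) and in the descending colon than in the distal jejunum (-0.47 ± 0.17, adjusted p = 0.0219), by edgeR in both. In that setting 51.5% and 44.7% of all tested miRNAs passed, and miR-196b, a marker of position along the gut, put 11 of the 13 libraries outside the rule.

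Over the 60 libraries, the miRNAs fell into 2 pairings that cut across the hairpins. miR-423-5p moved with miR-320a, with a Pearson correlation of log2 levels of 0.69 and a Spearman correlation of 0.68, while miR-423-3p moved with miR-484 (0.60 and 0.57). The correlation between the 2 arms of miR-423 was near 0 (-0.04 and -0.14). For miR-320a and miR-484, whose hairpins are capped in mouse and human, it was -0.19 and -0.16. miR-877 moved with miR-423-5p (0.65 and 0.57). Without the 2 libraries farthest from the median of the first miRNA named, the Pearson values were 0.69 for miR-423-5p with miR-320a, 0.61 for miR-423-3p with miR-484 and 0.60 for miR-423-5p with miR-877. Libraries of 1 animal are not independent, all levels of a library share its scaling, and miR-320a, miR-877 and miR-423-5p share the shedding difference for which they were named.

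Within the 30 libraries of each status, where that difference plays no part, the correlation of miR-423-5p with miR-320a was 0.73 in non-shedders and 0.37 in super-shedders, and that with miR-877 was 0.73 and 0.34. The correlation of miR-423-3p with miR-484 was 0.66 and 0.56. That of the 2 arms was -0.03 and -0.05, and that of miR-320a with miR-484 was -0.17 and -0.43. Whether these values differed between the statuses was not tested.

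**Figure D4:**
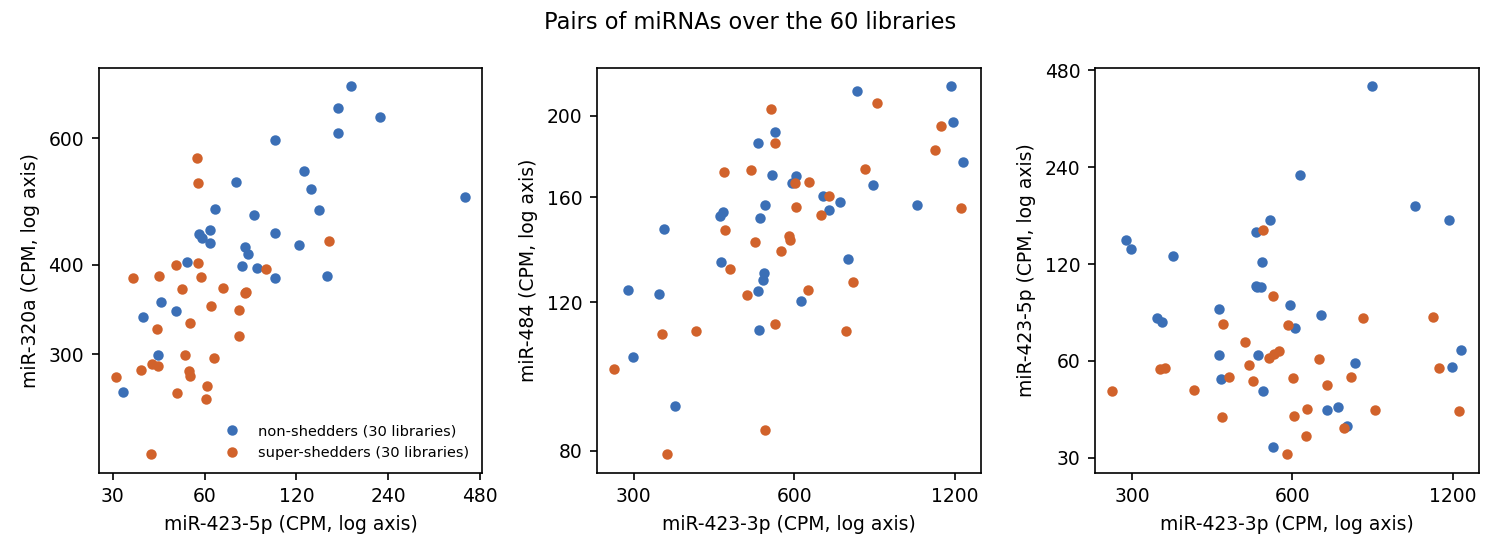
Levels in CPM (both axes logarithmic) of 3 pairs of miRNAs in the 60 libraries, 1 point per library, coloured by shedding status. miR-320a is higher where miR-423-5p is higher (Pearson correlation of log2 levels 0.69) and likewise miR-484 and miR-423-3p (0.60), while the 2 arms of miR-423 show no relation (-0.04).

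Among all miRNAs with a mean of at least 10 CPM, those closest to miR-320a in the correlation of log2 levels over the 60 libraries were let-7d (0.74, and 0.64 after the group means had been removed), miR-423-5p (0.69 and 0.61) and let-7e (0.68 and 0.59), the let-7 miRNAs being abundant in differentiated cells. Closest to miR-423-5p were miR-6529a (0.84 and 0.84), let-7d (0.76 and 0.69) and miR-320a. miR-877 was closest to miR-423-5p (0.65 and 0.72), miR-6529a (0.54 and 0.61) and miR-769 (0.51 and 0.53). let-7d and miR-6529a thus stood near more than 1 of the miRNAs of the lower set. miR-484 was closest to miR-132 (0.67 and 0.61), miR-1842 (0.66 and 0.65) and miR-17-5p (0.65 and 0.66), the last a member of the miR-17-92 cluster of proliferating cells. miR-423-3p was closest to miR-92b (0.71 and 0.71), miR-128 (0.66 and 0.71) and miR-484 (0.60 and 0.67).

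The spread over all libraries set miR-484 and miR-320a apart from miR-423-5p. The SD of log2(CPM + 1) was 0.32 for miR-484, rank 17 from the smallest of the 288 miRNAs tested in the model of all libraries, and 0.37 for miR-320a, rank 27. For miR-423-3p it was 0.53, and for miR-423-5p 0.75, above the median of 0.63 for all tested miRNAs. The small spread of miR-320a includes its difference between the statuses.

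**Figure D5:**
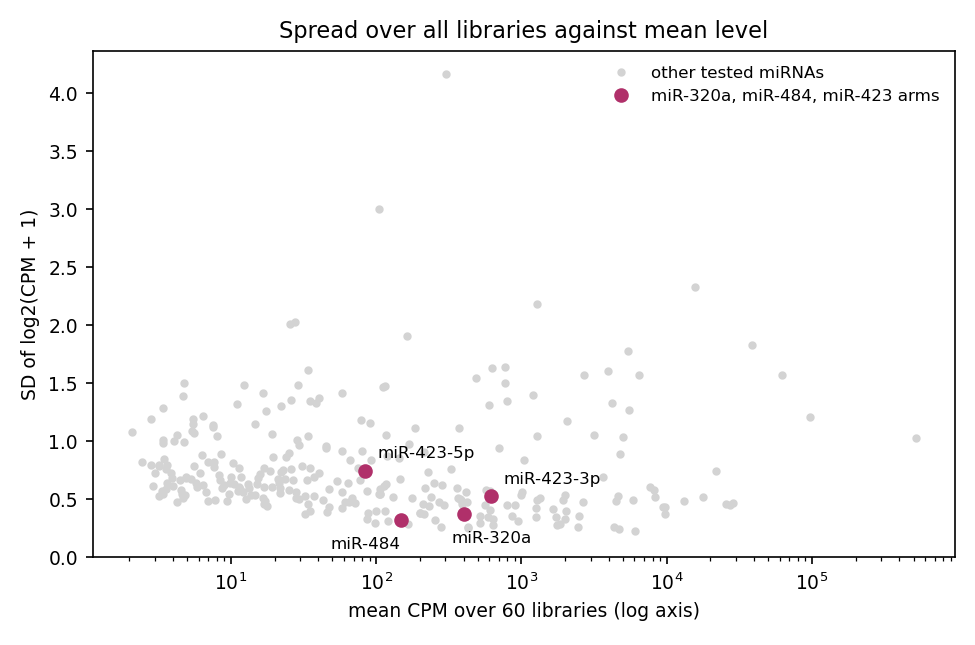
SD of log2(CPM + 1) over the 60 libraries (vertical axis) against the mean level in CPM (horizontal axis, logarithmic) for the 288 miRNAs tested in the model of all libraries, 1 point per miRNA. miR-484 (0.32), miR-320a (0.37) and miR-423-3p (0.53) lie below and miR-423-5p (0.75) above the median of 0.63. Other miRNAs lie lower still at levels like those of miR-484 and miR-320a, such as miR-532 (0.29) and miR-2284x (0.26).

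Of the other listed miRNAs that bypass Drosha or Dicer, few had enough counts to be tested. Of 14 names listed as mirtrons, products of small nucleolar or other structured RNAs, or Dicer-independent miRNAs, 7 were in the table and 4 were tested in the summed counts. There 0 of 4 passed in edgeR or DESeq2, or had an unadjusted p under 0.05, and 1 was below 0, with a median log2 fold change of 0.16 against 0.00 for all tested miRNAs. They ran from -0.11 ± 0.25 for miR-664b, which derives from a small nucleolar RNA in human, to 0.68 ± 0.41 for miR-1291, likewise. Between the large and the small intestine, miR-1291 was lower in the large (-1.38 ± 0.34, edgeR adjusted p = 0.00193), the 1 of 3 tested to pass in edgeR and in DESeq2, against 27.1% and 30.9% of all miRNAs.

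miRNAs that expression assays often use as references were listed as well. Of 16 listed, 15 were tested, and in the summed counts 0 of 15 passed in edgeR or DESeq2, with 0 and 1 at an unadjusted p under 0.05. There 6 were below 0 and the median was 0.02, from -0.28 for miR-222 to 0.28 for miR-361. Between the large and the small intestine, 4 of the 15 passed in edgeR, against 27.1% of all miRNAs, and 5 in DESeq2, against 30.9%. In edgeR, miR-191 (-0.35, edgeR adjusted p = 0.00926), miR-93 (-0.26, 0.0178) and miR-25 (-0.23, 0.0171) were lower in the large intestine, and miR-151-5p was higher (0.28, 0.0345).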

How the data were processed

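Small RNA libraries were made with the mirVana and TruSeq small RNA kits, per the labels. The deposited table gives unnormalised counts for each mature miRNA in 60 columns, as whole numbers. The submitters' processing notes name Bowtie and edgeR. Versions, roles, the annotation and the handling of multi-matching reads were not given in the sources used here.

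The members and lists were chosen with earlier results of these data known. The text names every row of the rule, the 3 miRNAs most correlated with each, and list members that passed a test or lay at the end of their list.

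After TMM scaling and the filterByExpr filter at a minimum count of 10, counts were tested with the two-sided quasi-likelihood F test of edgeR 4.0.16 in R 4.3.3, with Benjamini-Hochberg adjustment over all miRNAs tested. Standard errors are the log2 fold change over the square root of F. Shedding was fitted per region (10 libraries) and on counts summed per letter, and regions in 1 model of 12 group means of the 60 libraries, in which libraries of 1 letter count as independent. Alternatives used DESeq2 1.42.0, limma 3.58.1, other scalings and filters, letters left out, the letter as a block, and the 13 libraries left out. The fits were also run on simulated data, with libraries drawn independently and changes larger than those of the members. That run therefore does not cover libraries of 1 letter that deviate together, or differences as small as those given here.

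The labels do not say that a letter is an animal. Where it is not, p-values measure only the spread between these samples. Libraries of 1 letter deviated together, with a mean correlation of 0.155 over 150 pairs against -0.0271 for 1620 other pairs, and 93 of the 150 exceeded 0.1. Limits for a count of 0 rest on 3 counts of the library and, since the reads carry no molecular identifiers, cover counting error only.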

Additional observations from a re-analysis of the deposited data

Results flagged for a closer look

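The levels of 5 miRNAs and the 5p share of miR-423 gave 72 groups of 5 libraries, leaving out miR-320b with its 2 counts. Of these groups, 4 held a library far from the other 4, and chance alone flags about 1 in 20 groups. In the distal jejunum of non-shedders, letter A was high for miR-484 (217 CPM) and for miR-877 (10.6 CPM), in the library with the fewest counts of the series. In the duodenum of super-shedders, letter I was high for miR-423-5p (154 CPM), and that library goes against its markers through miR-122. In the descending colon of non-shedders, letter E was high for miR-423-5p (429 CPM).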

How the results depend on the processing

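Calls of the members changed in few settings. DESeq2 called 2 of 5 in the summed counts. Over the 15 pairs of regions 1 test passed with the replicate block (0.36 for miR-320a, cecum against distal jejunum), 1 without the 13 libraries against their markers (miR-484) and 2 with both (miR-484, and 0.34 for miR-320a, cecum against proximal jejunum), against 0 in the main analysis. Between the large and the small intestine 1 member passed without these libraries, with and without the block (miR-484, -0.21). Leaving out 1 letter gave 0 to 1 in these 2 comparisons and 0 to 0 in the others. Scaling to total counts moved the median of all miRNAs to between -0.27 and 0.32. It turned miR-320a to -0.088 and miR-423-5p to -0.13 between the large and the small intestine, where that median moved to -0.22. The block changed no other call of a member. The cause of these changes was not tested.

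Over all miRNAs, 63 differed between regions, 39 with total counts, 164 without the 13 libraries and 173 with the block as well, and 40 to 123 with 1 letter left out. The large against the small intestine gave 78, 159 and 175, and 55 to 128. In non-shedders it gave 68, 126 and 135, and 33 to 115, and in super-shedders 6, 87 and 92, and 0 to 33, with 10 under RLE scaling or a CPM filter, 17 in DESeq2 and 3 with the block. With 1 letter left out, the highest of each of these counts came without letter I, and the lowest without J, F, E and J in turn. The summed shedding comparison gave 1 call, 11 in DESeq2, 0 in limma on letter means, 0 with a CPM filter and 0 without the 13 libraries, and 0 to 2 with 1 letter left out. The interaction gave 1, 2 in DESeq2, 0 with the block, 0 without the 13 libraries and 0 with both, and 0 to 3 with 1 letter left out. Single regions gave 0 or 1 in the main analysis and 0 to 3 elsewhere, with 3 in 1 fit of all libraries for the duodenum and both parts of the jejunum, and 0 to 2 with 1 letter left out. The planned comparison of base composition with the shedding difference, by either correlation, was not run, since mature sequences were not used here. The depth limits miR-877 and miR-320b most.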
